A study of Homo sapiens with 6 samples.

Results

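The genes described here encode the death ligand TRAIL and its 4 membrane receptors, the death receptor FAS, and 4 proteins that carry or restrain the signal inside the cell. The 10 genes are TNFSF10, TNFRSF10A, TNFRSF10B, TNFRSF10C, TNFRSF10D, FAS, FADD, CFLAR, XAF1 and XIAP. They were measured by every probe set of the array that the platform annotation assigns to exactly 1 of these symbols, which gave 46 of 54613 probe sets. Another 2 probe sets name TNFRSF10C together with a second gene and were not used.

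TRAIL, the product of TNFSF10, binds the death receptors TRAIL-R1 and TRAIL-R2 (TNFRSF10A and TNFRSF10B), and FAS binds its own ligand. Bound death receptors recruit the adaptor FADD, which brings in caspase-8 and starts a cascade of executioner caspases. The decoy receptors (TNFRSF10C and TNFRSF10D) bind TRAIL without passing on a death signal, cFLIP (CFLAR) competes with caspase-8 for FADD, XIAP blocks caspases, and XAF1 antagonises XIAP. In colorectal cancer cells these genes are studied because they set how readily a cell dies when TRAIL or FAS ligand engages its receptor. TNFSF10 and XAF1 are also known as interferon-stimulated genes.

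SW480 is an established human colorectal adenocarcinoma line. By their labels, 3 samples are replicates in which CPEB3 was overexpressed by transfection, and 3 are replicates that received a negative control (NC). CPEB3 binds mRNAs and regulates their translation. The labels name no vector, clone, culture or day, so p-values measure only the spread between these samples. All values are log2 of the deposited normalized intensity of Affymetrix HG-U133 Plus 2.0 arrays, and differences are CPEB3 minus NC.

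The array medians lay between 3.89 and 3.93, and arrays of the same group correlated at 0.997 to 0.998 across probe sets. Of the 4 CPEB3 probe sets, 3 were dim, with NC means of 1.99, 3.75 and 3.30, below the median probe set (3.90). CPEB3 mRNA at these 3 went against the labels: they were lower in the arrays labelled CPEB3, by up to 1.44 on the log2 scale. The other, its brightest, differed by 0.05. The 2 groups are for that reason named only by what their arrays are labelled, CPEB3 or NC, and no direction given here is firmer than these labels. Of 10 epithelial markers 6 lay above the median gene, against 1 of 13 leukocyte markers and 1 of 12 fibroblast and endothelial markers. No probe set was listed at 0, these markers included, so this does not show that a marker was expressed. The summed intensity of the leukocyte markers was 190 to 203 in the arrays labelled CPEB3 and 175 to 184 in those labelled NC. That of the fibroblast and endothelial markers was 231 to 238 in the arrays labelled CPEB3 and 219 to 225 in those labelled NC. That of the epithelial markers was 8583 to 8876 in the arrays labelled CPEB3, against 7789 to 7929 in those labelled NC. The part of these markers in the results was not tested. In bulk RNA, fewer cells that express a gene and less RNA per cell cannot be told apart.

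The death ligand genes did not move as a block. XAF1 was several-fold lower in the arrays labelled CPEB3, the TRAIL receptor TNFRSF10B was modestly lower, and FAS and the decoy receptor TNFRSF10D were modestly higher, while TNFSF10 was dim on every array. Of the 46 probe sets, 12 (26.1%) had an adjusted p under 0.05 (limma, Benjamini-Hochberg), and 14.4% of all probe sets did. They split into 6 lower and 6 higher, where 7.86% of all probe sets were lower and 6.59% higher. With spike-in centring, which scales each array to its hybridization spike-ins, the split was 2 lower and 18 higher, and over all probe sets 1910 lower and 17876 higher. The groups did not overlap in 21 member probe sets (45.7%), against 32.1% of all probe sets. Calls were more frequent among brighter probe sets. Among the 28 member probe sets at or above the median probe set, 28.6% passed, close to 24.1% of all probe sets in that range. Among the 18 below it, 22.2% passed, against 4.79%. The median difference of the members was -0.0014, beside 0.02 over all probe sets.

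**Figure D1:**
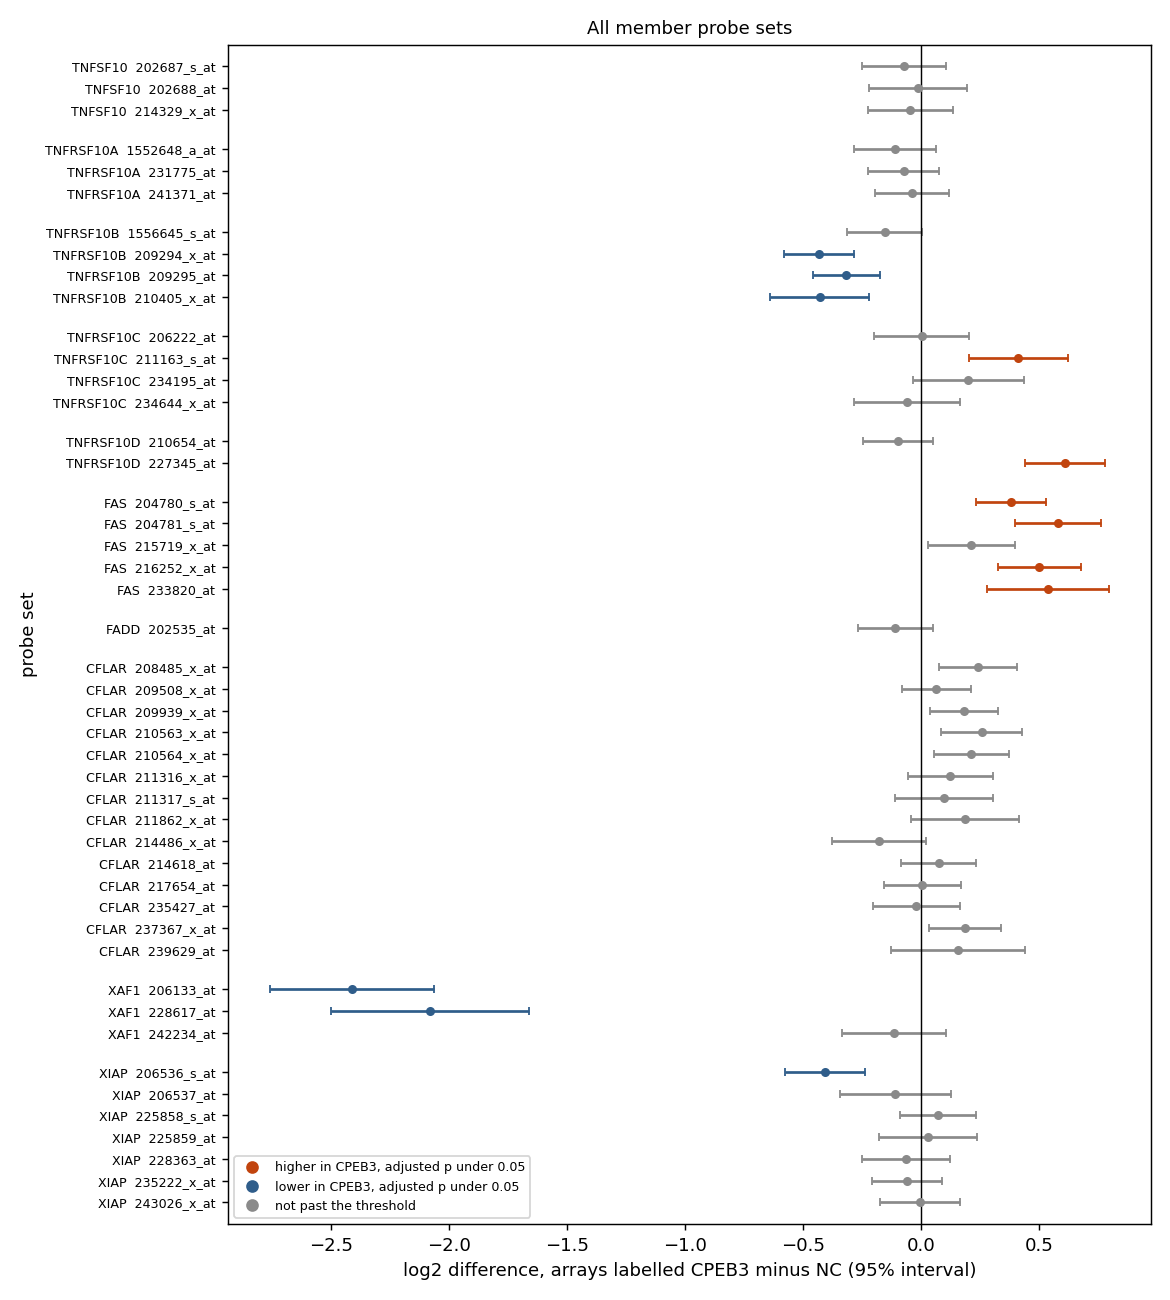
Log2 difference (arrays labelled CPEB3 minus NC, x axis) with its 95% interval at each of the 46 probe sets (y axis), grouped by gene. The falls of XAF1 at -2.41 and -2.08 stand far to the left, the TNFRSF10B probe sets lie left of 0 and all 5 FAS probe sets lie right of it.

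The ligand gene TNFSF10 had 3 probe sets, all far below the median probe set. The brightest, 202687_s_at, read 1.56, 1.66 and 1.53 in the arrays labelled CPEB3, against 1.52, 1.72 and 1.73 in those labelled NC. The groups overlapped, and the difference was -0.073 (95% interval -0.25 to 0.10). At the other probe sets the differences were -0.013 and -0.047, and none of the 3 passed limma's test (Benjamini-Hochberg adjusted p = 0.609 to 0.947; 0 at an unadjusted p under 0.05). No detection calls were used, so whether TNFSF10 lay above background on any array was not tested, and a probe set this dim can hide a difference.

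The sequence before the start of TNFSF10 is shown because, unlike that of the other members with a window in the RefSeq promoter table (GRCh38.p14), it holds a pattern that interferon-activated factors are known to bind, GAAA and GAAA with any 2 bases between them. The window spans 250 bases before to 50 after the annotated start. The part before the start, chr3:172523431-172523680 on the minus strand, carries in capitals a match to this pattern, which here reads on the opposite strand and begins 187 bases before the start, and a match to the shorter GAAANGAAA, also on the opposite strand, 49 bases before it.
TNFSF10: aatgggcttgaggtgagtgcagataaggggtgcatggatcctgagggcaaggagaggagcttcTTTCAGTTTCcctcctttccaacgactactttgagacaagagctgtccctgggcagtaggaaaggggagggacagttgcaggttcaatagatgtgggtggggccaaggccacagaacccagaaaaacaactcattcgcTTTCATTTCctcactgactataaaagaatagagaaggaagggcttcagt
The matches do not overlap each other. On both strands, the pattern with 2 bases between was found in 1 of 14 member windows and in 3.57% of the 35116 promoters of the table. GAAANGAAA, a pattern added after the letters of a window were read, was found in 2 member windows and in 3.12% of all promoters. A match describes letters and is not a bound site.

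The death receptors for TRAIL differed from each other. TNFRSF10A, which encodes TRAIL-R1, had 3 probe sets above the median probe set, and the groups overlapped at each of them. At its brightest, 231775_at, the arrays labelled CPEB3 read 7.95, 7.85 and 7.94 and those labelled NC 8.03, 8.01 and 7.92. The 3 differences lay between -0.11 and -0.040, their 95% intervals between -0.28 and 0.12, and none passed (limma, Benjamini-Hochberg adjusted p = 0.396 to 0.766; 0 at an unadjusted p under 0.05).

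TNFRSF10B, which encodes TRAIL-R2 (DR5), fell at 3 of its 4 probe sets. At the brightest, 209295_at, the arrays labelled CPEB3 read 8.47, 8.48 and 8.50, against 8.80, 8.85 and 8.75 in those labelled NC. Every array labelled CPEB3 was below every array labelled NC, by 0.32 on average (SE 0.06, 1.25-fold; limma, Benjamini-Hochberg adjusted p = 0.00939). At 209294_x_at the values were 4.91, 4.97 and 4.83 in the arrays labelled CPEB3 and 5.33, 5.35 and 5.33 in those labelled NC. At 210405_x_at they were 4.84, 4.98 and 4.82 in the arrays labelled CPEB3, against 5.16, 5.49 and 5.28 in those labelled NC. Both of these probe sets gave a difference of -0.43 without overlap of the groups (limma, Benjamini-Hochberg adjusted p = 0.00217 and 0.0135), and both can match several transcripts. The remaining probe set, the dim 1556645_s_at, differed by -0.15 and did not pass (adjusted p = 0.194). With spike-in centring the 3 called differences shrank to -0.14, -0.26 and -0.25 and none passed (limma, Benjamini-Hochberg adjusted p = 0.234, 0.0527 and 0.0826). These spike-ins were dimmer by 0.18 on the log2 scale in the arrays labelled CPEB3.

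Each decoy receptor gene rose at 1 probe set, and none of their other probe sets passed. TNFRSF10D, whose product has a truncated death domain, rose at the brighter of its probe sets, 227345_at, which read 7.25, 7.21 and 7.18 in the arrays labelled CPEB3, against 6.47, 6.66 and 6.69 in those labelled NC. The groups lay well apart, with a difference of 0.61 (SE 0.08, 1.53-fold; limma, Benjamini-Hochberg adjusted p = 6.97e-04). The other probe set, 210654_at, was below the median probe set and did not show this, with 2.29, 2.35 and 2.34 in the arrays labelled CPEB3, against 2.44, 2.48 and 2.36 in those labelled NC. The groups did not overlap there either, with the arrays labelled CPEB3 lower, but the difference of -0.10 did not pass (limma, Benjamini-Hochberg adjusted p = 0.374). TNFRSF10C, whose product is a glycolipid-anchored decoy without a death domain, rose at 1 of 4 probe sets, 211163_s_at. There the arrays labelled CPEB3 read 3.34, 3.11 and 3.10 and those labelled NC 2.71, 2.69 and 2.93, a difference of 0.41 (limma, Benjamini-Hochberg adjusted p = 0.0167). This probe set is dim, the rise was not past the threshold without CPEB3 replicate 1 (adjusted p = 0.0623), NC replicate 1 (0.0623) or NC replicate 2 (0.0582), and the other 3 probe sets of the gene differed by -0.061 to 0.20 without passing.

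FAS, the receptor for FAS ligand, was higher in the arrays labelled CPEB3 at all 5 probe sets, with no overlap of the groups at any of them, and 4 passed the test. The brightest, 204780_s_at, read 6.93, 6.96 and 6.98 in the arrays labelled CPEB3 and 6.64, 6.50 and 6.59 in those labelled NC. The rise there was 0.38 (SE 0.07, 1.30-fold; limma, Benjamini-Hochberg adjusted p = 0.00439). The steepest was at 204781_s_at, with 6.02, 5.95 and 5.90 in the arrays labelled CPEB3, against 5.23, 5.41 and 5.49 in those labelled NC, a difference of 0.58 (SE 0.08, 1.49-fold; adjusted p = 0.00133). FAS also rose by 0.50 at 216252_x_at and by 0.54 at 233820_at, the second of which is dim. The fifth, 215719_x_at, differed by 0.21 and did not pass (limma, Benjamini-Hochberg adjusted p = 0.126). The 4 rises passed under all alternatives that could be computed for them, with differences between 0.34 and 0.76. However, 204780_s_at, 204781_s_at and 216252_x_at can match several transcripts. The alternative that leaves such probe sets out could be computed only for the dim 233820_at among them.

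**Figure D2:**
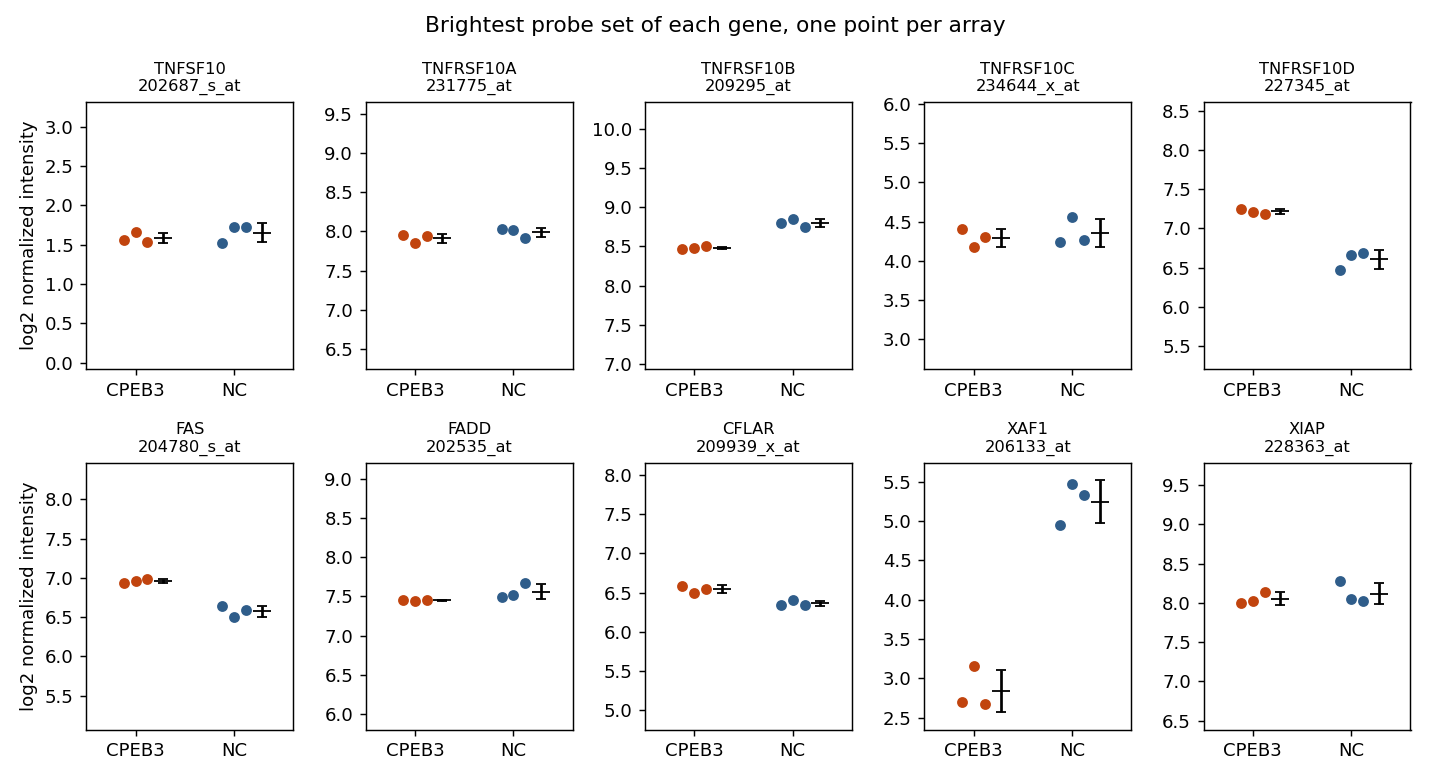
Log2 normalized intensity (y axis, the same span in every panel but another midpoint) at the brightest probe set of each of the 10 genes, for the arrays labelled CPEB3 (left) and NC (right). Each point is 1 array, and the black mark is the mean with its SD (n = 3). XAF1 shows the widest gap between the groups, TNFRSF10D and FAS sit higher and TNFRSF10B lower in the arrays labelled CPEB3, and the TNFSF10 groups overlap.

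Since a constant added to 1 array cancels between probe sets of that array, the brightest probe sets of these receptors were also compared within arrays, a comparison added after the data were seen. With the NC mean set to 0, TNFRSF10D over TNFRSF10B was 0.98, 0.93 and 0.87 in the arrays labelled CPEB3 and -0.13, -0.00017 and 0.13 in those labelled NC. FAS over TNFRSF10B was 0.69, 0.71 and 0.70 in the arrays labelled CPEB3, against 0.06, -0.13 and 0.07 in those labelled NC. The groups lay apart in both. The pairs were chosen for genes already seen to differ in opposite directions, so these values restate the differences above without a whole-array constant and are given with no test. Which of the genes moved in absolute terms cannot be read from such a ratio.

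FADD, the adaptor that death receptors recruit, had 1 probe set, 202535_at, with 7.45, 7.44 and 7.45 in the arrays labelled CPEB3 and 7.49, 7.52 and 7.67 in those labelled NC. The groups did not overlap, but the difference of -0.11 (95% interval -0.27 to 0.05) did not pass (limma, Benjamini-Hochberg adjusted p = 0.359).

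CFLAR, which encodes the caspase-8 competitor cFLIP, had 14 probe sets, the most of any member. The differences ran from -0.18 to 0.26 and were above 0 at 12 of them, and none passed (limma, Benjamini-Hochberg adjusted p = 0.0521 to 0.975; 5 at an unadjusted p under 0.05). The groups did not overlap at those 5, all of them higher in the arrays labelled CPEB3. Nearest to the threshold was 210563_x_at, with 6.24, 6.26 and 6.17 in the arrays labelled CPEB3 and 5.84, 6.03 and 6.04 in those labelled NC, a difference of 0.26. The brightest, 209939_x_at, read 6.59, 6.50 and 6.55 in the arrays labelled CPEB3, against 6.34, 6.40 and 6.35 in those labelled NC. Its difference of 0.18 passed when each gene was represented by 1 probe set only (limma, Benjamini-Hochberg adjusted p = 0.0485). That fit takes fewer tests and also gave a smaller SE (0.057, against 0.064 per probe set). The call was lost without any 1 of the 6 arrays (adjusted p = 0.079 to 0.132). It was also lost with median centring, robust variances, array weights, a replicate block or averaged probe sets. Leaving out probe sets that can match several transcripts lost it as well, and the other alternatives kept it. Spike-in centring put 9 of the 14 probe sets past the threshold, all higher. The probe sets overlap in what they can match, so they are not independent measurements, and the isoforms of CFLAR were not told apart.

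XAF1, the antagonist of XIAP, had the steepest fall among the members. At 206133_at the arrays labelled CPEB3 read 2.70, 3.15 and 2.67, against 4.95, 5.47 and 5.33 in those labelled NC. The groups stood far apart, at 2.84 ± 0.27 and 5.25 ± 0.27 (SD, n = 3 each), a difference of -2.41 (SE 0.15, 5.31-fold; limma, Benjamini-Hochberg adjusted p = 1.11e-05). Of all 54613 probe sets, 58 had a difference as low as this or lower, itself included. At 228617_at the values were 2.25, 3.13 and 2.92 in the arrays labelled CPEB3 and 4.74, 4.90 and 4.90 in those labelled NC, a difference of -2.08 (SE 0.19; limma, Benjamini-Hochberg adjusted p = 9.72e-05). The means of the arrays labelled CPEB3 lay below the median probe set, a range in which RMA is known to compress differences. The third probe set, 242234_at, was dim in both groups (2.27 to 2.54 in the arrays labelled CPEB3, 2.35 to 2.67 in those labelled NC) and differed by -0.12 (adjusted p = 0.498). The fall at the other probe sets was between -2.56 and -1.82 under every alternative run, and passed under each.

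The RefSeq table gives XAF1 a pair of promoter windows, and neither holds the pattern with 2 bases between. The letters of 1 of them, chr17:6755796-6756049 on the plus strand, are shown because this is the member with the steepest fall and because they end in GAAANGAAA (capitals), which begins 5 bases before the annotated start and runs across it.
XAF1: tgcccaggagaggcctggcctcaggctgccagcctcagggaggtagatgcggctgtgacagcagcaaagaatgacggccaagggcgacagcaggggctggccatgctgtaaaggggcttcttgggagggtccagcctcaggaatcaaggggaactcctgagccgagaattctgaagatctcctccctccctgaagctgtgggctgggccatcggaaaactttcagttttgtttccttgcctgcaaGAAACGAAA
No member window held TTCNNNGAA, the pattern of the interferon gamma activated site, which 7.66% of all promoters hold. An NF-kB-like pattern, GGG and CC with any 5 bases between them, was in 11 of 14 member windows and in 58.7% of all promoters. Windows were found for 6 of the 10 genes. No window of the TRAIL receptors was used here.

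The genes whose pattern over the 6 arrays was most like that of XAF1 were found by the root mean square distance between log2 profiles, each centred on its own mean. They were ISG20 (distance 0.14), PARP9 (0.17), IFI35 (0.17), PLSCR1 (0.18) and SP110 (0.19), where the median gene lay at 1.24. Their differences ran from -2.54 to -2.20. For TNFSF10 the nearest were SWSAP1, LOC105377458, MIR205HG, LINC00529 and GGA3, at distances of 0.01 to 0.02. For this gene the median gene lay at only 0.14, so the distances of the 2 genes are not on a like footing.

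XIAP, the caspase inhibitor that XAF1 antagonises, had 7 probe sets, and 6 of them did not pass, with differences from -0.11 to 0.071. At the brightest, 228363_at, the arrays labelled CPEB3 read 7.99, 8.02 and 8.14 and those labelled NC 8.27, 8.05 and 8.03, which overlap (difference -0.064, 95% interval -0.25 to 0.12). The exception was the dim 206536_s_at, which read 3.20, 3.03 and 3.05 in the arrays labelled CPEB3, against 3.41, 3.54 and 3.55 in those labelled NC. It fell by 0.41 (limma, Benjamini-Hochberg adjusted p = 0.00629), and with spike-in centring the difference was -0.23 and did not pass (adjusted p = 0.0668). Under the same centring the brighter 225858_s_at, 0.071 as reported, was 0.25 and passed in the other direction (adjusted p = 0.0489).

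**Figure D3:**
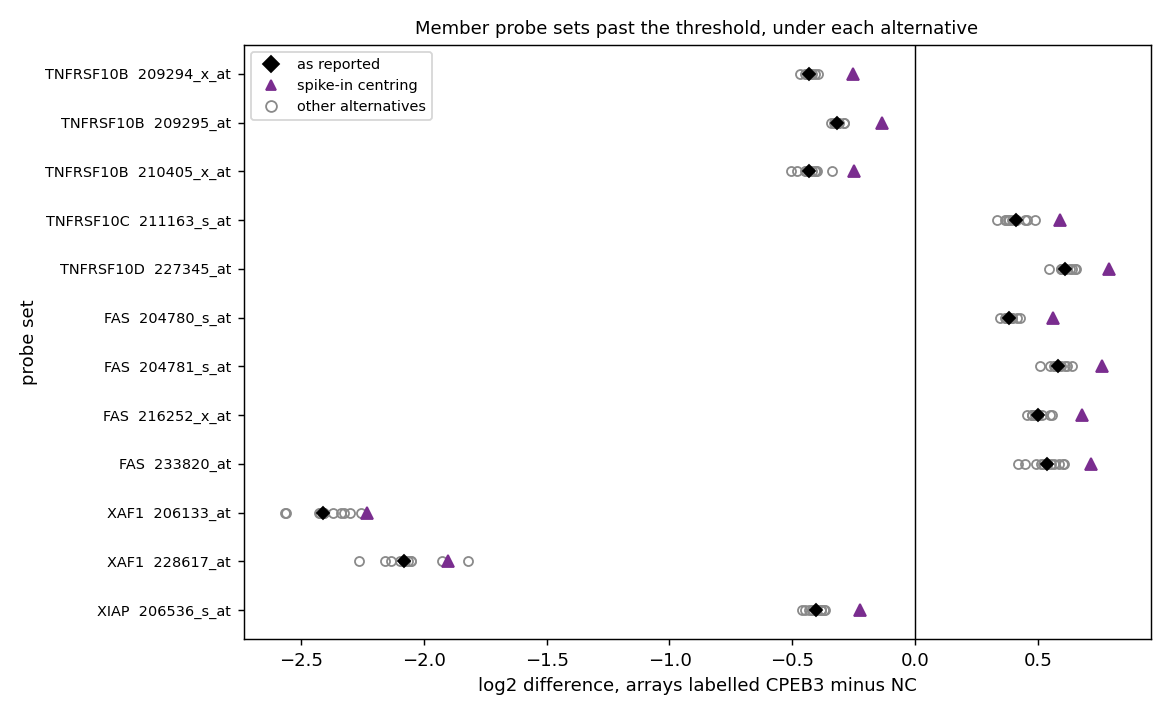
Log2 difference (x axis) at the 12 member probe sets that passed the threshold (y axis) as reported (black diamonds), with spike-in centring (triangles) and under the other alternatives (open circles). No point crosses 0, and spike-in centring moves every probe set to the right by 0.18.

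Of 42 further genes of death ligand signalling, 35 had a probe set with a single symbol, and the others were not analysed here. With 1 probe set a gene, 10 of the 35 fell and 4 rose (40%, against 23.3% of all 19775 genes called in the same fit, 12.5% lower and 10.9% higher). These shares are not matched for brightness, and brighter probe sets were called more often. Their median difference was -0.03, beside 0.02 over all genes. With spike-in centring 5 were lower and 11 higher, and with a gene's probe sets averaged 7 were lower and 6 higher. Spike-in centring shifts all genes alike, and over all 54613 probe sets it gave 1910 lower and 17876 higher. Counts over all genes are not given here for these alternatives, so neither split is read as particular to the partners.

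Of 5 other ligands 1 passed per gene, higher, and of 5 other receptors 3 passed, all lower. FASLG, the ligand of FAS, is made mainly by lymphocytes. It read 3.11, 3.14 and 3.04 in the arrays labelled CPEB3, against 2.72, 2.78 and 2.98 in those labelled NC, below the median probe set throughout. Its difference of 0.27 passed per gene (limma, Benjamini-Hochberg adjusted p = 0.0332) but at neither of its probe sets when all probe sets were tested, and not under quantile normalization once more (adjusted p = 0.0527) or without any single array but NC replicate 3 (0.0509 to 0.104). Among the receptors, TNFRSF1A, the main TNF receptor, fell by 0.40, with 6.83, 6.85 and 6.94 in the arrays labelled CPEB3, against 7.26, 7.31 and 7.28 in those labelled NC. TNFRSF12A, the TWEAK receptor, fell by 0.36. TNFRSF25 (DR3) fell by 0.35 at its brightest probe set, but its difference was 0.039 once probe sets matching several transcripts were left out. That call was also lost without CPEB3 replicate 1, 2 or 3 or NC replicate 2 (adjusted p = 0.0525 to 0.243). With spike-in centring neither TNFRSF25 nor TNFRSF12A passed (adjusted p = 0.178 and 0.098).

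Of the 4 ubiquitin regulators of these receptor complexes, 3 passed per gene, all lower. CYLD, a deubiquitinase, read 4.49, 4.50 and 4.67 in the arrays labelled CPEB3, against 5.44, 5.49 and 5.53 in those labelled NC, and fell by 0.93, although 2 of its 7 probe sets were called and with their mean the difference was -0.25. RBCK1 (HOIL-1), a subunit of the linear ubiquitin ligase, fell at all 3 probe sets. The brightest read 9.05, 9.11 and 9.21 in the arrays labelled CPEB3, against 9.82, 9.94 and 10.00 in those labelled NC, a difference of -0.797. Its partner RNF31 (HOIP), the catalytic subunit, fell by 0.20 at its brightest probe set and was 0.28 higher at the other, so its direction is not settled. When all probe sets were tested, only the rise passed. With probe sets matching several transcripts left out, RNF31 passed as higher (limma, Benjamini-Hochberg adjusted p = 0.0136). The lower call of RNF31 per gene was lost without any single array but NC replicate 1 (adjusted p = 0.0606 to 0.112). SHARPIN, another subunit, differed by 0.042 (95% interval -0.087 to 0.17).

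CASP8, the initiator caspase that FADD recruits, read 7.08, 7.04 and 7.03 in the arrays labelled CPEB3, against 7.53, 7.42 and 7.46 in those labelled NC at its brightest probe set. The groups lay apart there, with a difference of -0.42 (limma, Benjamini-Hochberg adjusted p = 9.20e-04). With the mean of its 3 probe sets the difference was -0.13 and did not pass (adjusted p = 0.228), and it was 0.21 once probe sets matching several transcripts were left out. FAIM, named as an inhibitor of FAS-induced death, rose by 0.44, and the BH3-only protein BID, which links caspase-8 to mitochondria, rose by 0.32, with 8.19, 8.13 and 8.16 in the arrays labelled CPEB3, against 7.81, 7.87 and 7.84 in those labelled NC. APAF1, the scaffold of the apoptosome, fell by 0.74 at its brightest probe set. The mean of its 3 probe sets gave -0.18, which did not pass (adjusted p = 0.0677). Of 4 other inhibitors of apoptosis, BIRC2 (cIAP1) fell by 0.28 and BIRC5 (survivin) by 0.32. With spike-in centring neither passed (adjusted p = 0.347 and 0.178). The call of BIRC5 was also lost once probe sets matching several transcripts were left out (-0.255; limma, Benjamini-Hochberg adjusted p = 0.0633). GALNT3, a glycosyltransferase of the family that modifies death receptors, rose by 0.64 at the brighter of its probe sets, differed by 0.058 at the other, and rose by 0.35 with their mean, which also passed. Some partners not called at their brightest probe set were called at others. CYCS, which encodes cytochrome c, was higher at 2 of 3 probe sets, by up to 0.994, and differed by 0.062 at the brightest. CASP10, an initiator caspase related to caspase-8, was higher at 1 of 4. The probe sets used per gene for TNFRSF1A, TNFRSF12A, CYLD, FAIM, BID, APAF1 and GALNT3 can also match several transcripts.

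**Figure D4:**
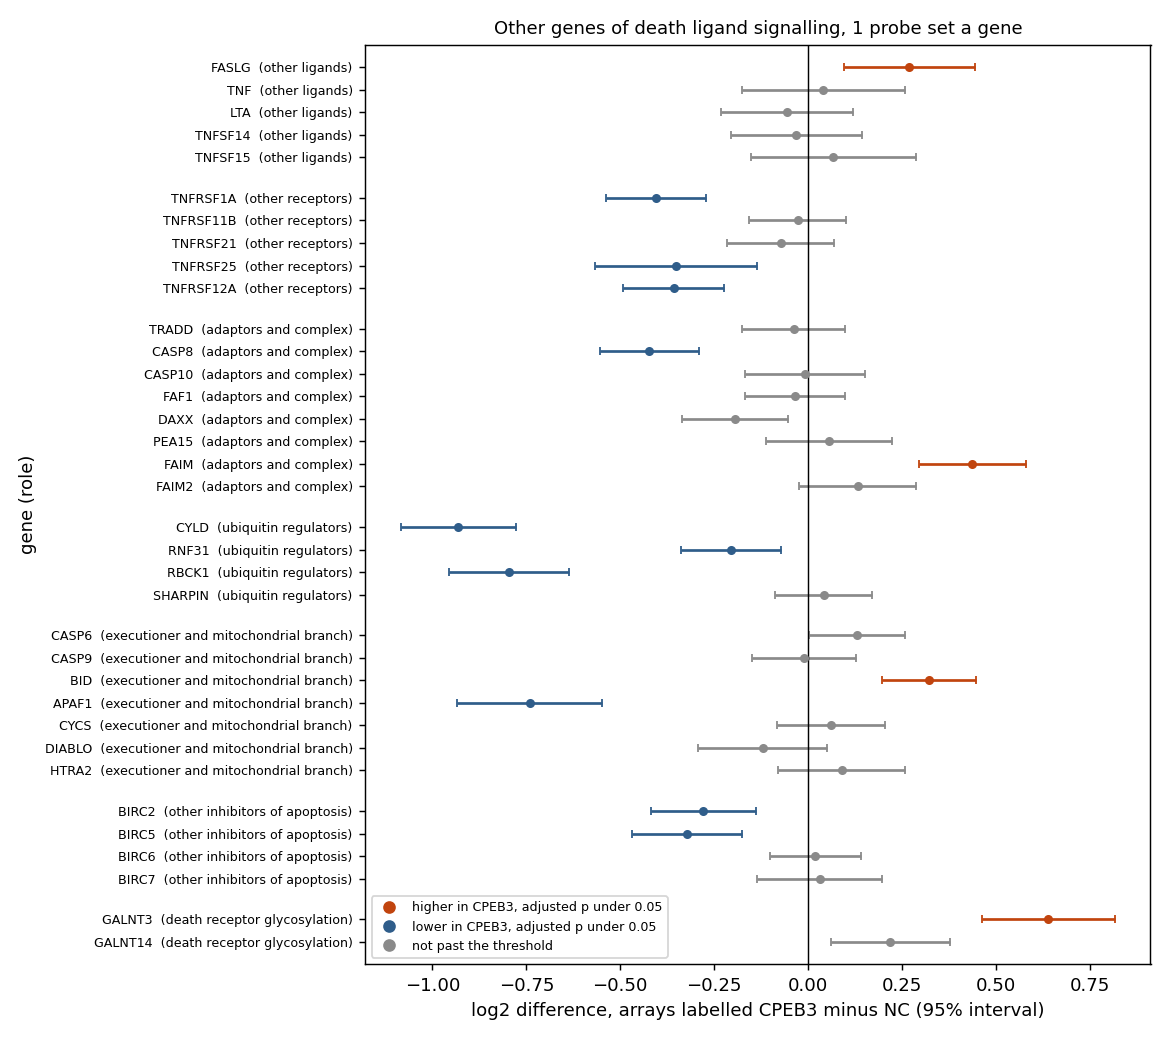
Log2 difference (arrays labelled CPEB3 minus NC, x axis) with its 95% interval for the 35 other genes of death ligand signalling (y axis), grouped by role, at the brightest probe set of each gene. The 10 falls include CYLD at -0.93, RBCK1 at -0.797 and APAF1 at -0.74, and the 4 rises are FASLG, FAIM, BID and GALNT3.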

How the data were processed

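Each array's file of normalized intensities, 1 for every probe set, was deposited by the authors in linear units and made with RMA per the submitters' processing notes. Those notes name no RMA version or chip definition file, and they do not say how values left the log2 scale of RMA. Array medians were 14.8 to 15.2, and log2 of the deposited intensity was taken before any test. RMA gives all arrays nearly the same distribution and cannot show a change in RNA content per cell. The precision is limited by the number of arrays.

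Groups and replicate numbers came from the sample titles. The 62 control probe sets were left out, and 54613 were fitted by lmFit and eBayes of limma 3.58.1 (R 4.3.3; group as the only term, two-sided, Benjamini-Hochberg adjustment over all probe sets, threshold 0.05). The fit had 4 residual degrees of freedom. The platform annotation gave 41091 probe sets 1 symbol and 1801 several. A second fit used the brightest single-symbol probe set of each of 19775 genes. Intervals are 95%.

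The members and lists were chosen with earlier results of these data known. Named are every member, partners past the threshold with FASLG and CASP8 whatever their result, and the 5 genes most like XAF1 and TNFSF10. SHARPIN, CYCS and CASP10 are named outside this rule, after their values were seen. The correlations of deviations between arrays that share a replicate number were 0.0065, 0.0012 and 0.093. Arrays of unlike number were not compared in this way, so whether the number pairs the samples was not tested. The within-array comparison and the promoter pattern GAAANGAAA were added after the data were seen. Figures were drawn with matplotlib 3.10.9.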

Additional observations from a re-analysis of the deposited data

How the results depend on the processing

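The 12 member probe sets past the threshold kept their direction under every alternative computed. In 173 of 181 recomputed values they also stayed past it. The 8 exceptions were the 3 TNFRSF10B probe sets and the XIAP probe set with spike-in centring, TNFRSF10B 210405_x_at without CPEB3 replicate 1 (-0.41, adjusted p = 0.0566), and TNFRSF10C 211163_s_at without each of 3 arrays, as given above. Of 512 recomputed values of member probe sets that had not passed, 24 passed, most of them CFLAR probe sets, and 41 changed sign.

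With a gene's probe sets averaged, 7 partners were lower and 6 higher, and the count over all genes in that fit is not given here.

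Spike-in centring adds about 0.18 to every difference. It left 2 member probe sets lower (both XAF1) and 18 higher, 1 member gene lower, 5 partners lower and 11 higher, and over all probe sets 1910 lower and 17876 higher. Under it, differences that had not passed changed sign without passing in TNFSF10 (0.11, 0.17 and 0.13), TNFRSF10A (0.068, 0.10 and 0.14), TNFRSF10B (0.026), TNFRSF10C (0.12), TNFRSF10D (0.079), FADD (0.070), CFLAR (0.00049 and 0.16), XAF1 (0.063) and XIAP (0.069, 0.12, 0.12 and 0.17). The cause of the dimmer spike-ins was not tested.

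With probe sets matching several transcripts left out, 3 member probe sets were lower and 2 higher, 3 partners were lower and 3 higher, and over all probe sets 2351 were lower and 2146 higher, since fewer were tested. TNFRSF25 turned to 0.039 and CASP8 to 0.21, neither of which passed. RNF31 turned to 0.28 and passed as higher (limma, Benjamini-Hochberg adjusted p = 0.0136), and was 0.039 with the mean of its probe sets. Median centring turned TNFRSF10C 206222_at to -0.013 and CFLAR 217654_at to -0.010. Repeated quantile normalization turned them to -0.025 and -0.028, TNFRSF10A 241371_at to 0.0036 and XIAP 243026_x_at to 0.043, and array weights turned CFLAR 217654_at to -0.0078.

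With all arrays and 1 probe set a gene, 2 of the 10 member genes were lower and 3 higher (50%, against 23.3% of all 19775 genes, not matched for brightness). Without each array in turn, member probe sets past the threshold numbered 5 to 6 lower and 5 to 6 higher, and all probe sets 2939 to 3808 lower and 2204 to 2872 higher. Member genes were then 2 lower and 2 higher, the lost call being that of CFLAR, and partners 8 to 11 lower and 3 to 4 higher. Counts over all genes in these fits are not given here. Small differences changed sign: TNFSF10 202688_at ranged from -0.090 to 0.086 and 214329_x_at from -0.094 to 0.013, TNFRSF10C 206222_at from -0.060 to 0.092 and 234644_x_at from -0.12 to 0.042, CFLAR 217654_at from -0.039 to 0.041 and 235427_at from -0.067 to 0.066, XIAP 225859_at from -0.063 to 0.085, 228363_at from -0.11 to 0.013 and 243026_x_at from -0.070 to 0.043.

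The replicate number as a replicate block left 6 member probe sets lower and 6 higher, and 9 partners lower and 4 higher. Over all probe sets this fit gave 4022 lower and 3195 higher, against 4294 and 3597 without the block. The calls of CFLAR, FASLG and RNF31 per gene were lost (adjusted p = 0.0881, 0.0541 and 0.0569). Many member probe sets are dim, and without a detection call a small difference there cannot be told from none.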
